A study of Mus musculus with 20 samples.

Results

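The values of 10 genes of the NF-kB system were followed through 20 arrays of sorted mouse ear endothelial cells: the subunit genes Nfkb1, Nfkb2, Rel, Rela and Relb, the feedback inhibitor genes Nfkbia, Tnfaip3 and Birc3, and the genes of the nuclear IkB proteins, Nfkbiz and Bcl3. They were chosen by name, and each was read at the probe set whose annotation gives that symbol alone. Of the 10 genes, 9 had such a probe set, 1 each, among 41345 probe sets in all, and Nfkb1 was not analysed here. The 9 probe sets passed the filter on dim probe sets, which kept 14886.

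The cells were CD31+CD45-Ter119- cells, sorted by flow cytometry after collagenase digestion of ears. Contact hypersensitivity was provoked with the hapten DNFB, which was painted on the skin on days 0 and 1 for sensitisation and on the ear pinna on day 5, with ears taken 24 hours later. NICD mice (NICD1-EC-OE in the labels) express the Notch1 intracellular domain, a constitutively active form of the receptor, from the Rosa26 locus (R26-NICD) after Cre recombination in endothelial cells. The genotype label names Pdgfb-CreERT2 as the driver and the growth protocol names CDH5-iCre, so the driver is not settled. The control mice are labelled only as control, so their alleles are unknown, and 5 daily tamoxifen injections are given for all mice. The groups were NICD DNFB ears (4 arrays), NICD vehicle ears (4 arrays), control DNFB ears (6 arrays) and control vehicle ears (6 arrays). For NICD vehicle replicate 4 the sample title says vehicle but the description says DNFB, and the title was followed. The labels give no mouse for an array, so the tests measure the spread between these samples, which may be partly technical.

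NF-kB is a family of dimeric transcription factors held in the cytoplasm by IkB proteins. Ligands such as TNF and interleukin-1 activate the IKK kinases, which mark IkB for degradation, and the freed dimers enter the nucleus. Among the genes they switch on in endothelium are adhesion molecules, chemokines and their own inhibitors, so the pathway carries its own feedback. The canonical arm uses the Rela and Rel proteins with the product of Nfkb1, whereas the non-canonical arm, driven by the kinase NIK (Map3k14), processes the product of Nfkb2 for pairing with Relb.

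Feedback of this kind acts through kappa-B sites, and the start-site windows of the members are shown here as a description. Whether the sites bear on the members' values was not tested. RefSeq windows (build GRCm38.p6, 250 bases before to 50 bases after an annotated start) were given for 7 of the 10 genes, 10 windows in all, and not for Nfkb1, Relb and Nfkbiz. On both strands, 2 motifs were searched, the kappa-B consensus and a narrower kappa-B motif with a central pair of T, whose matches may overlap each other. Matches to the consensus lay in the windows of 5 members (Nfkb2, Rel, Nfkbia, Tnfaip3 and Bcl3), and each of the 5 also held the narrower motif. Of all 27025 genes with a window in the table, 9.55% held the consensus and 5.48% the narrower motif, beside 5 of the 7 members with a window, and of all 32851 windows 8.46% and 4.79%. The 250 bases upstream of a start are printed for 5 members, 5′ to 3′ on the gene's strand, with matches to either motif in capitals. Nfkb2 and Rela are subunit genes that rose with DNFB as deposited, Rel is the subunit gene with no called DNFB change, and Nfkbia and Tnfaip3 are inhibitor genes that were lower in NICD mice in both treatments as deposited. The Nfkb2 window (chr19:46304487-46304736, plus strand) is the first of 3 given for that gene, the Tnfaip3 window (chr10:19015411-19015660, minus strand) is the second of 2, and the others are Rel (chr11:23770970-23771219, minus strand), Rela (chr19:5637291-5637540, plus strand) and Nfkbia (chr12:55492648-55492897, minus strand).
Nfkb2: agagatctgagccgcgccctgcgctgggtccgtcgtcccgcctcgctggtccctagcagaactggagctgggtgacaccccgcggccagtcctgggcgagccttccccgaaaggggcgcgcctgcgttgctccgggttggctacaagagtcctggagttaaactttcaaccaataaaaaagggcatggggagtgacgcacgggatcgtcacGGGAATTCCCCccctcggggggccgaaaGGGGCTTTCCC
Rel: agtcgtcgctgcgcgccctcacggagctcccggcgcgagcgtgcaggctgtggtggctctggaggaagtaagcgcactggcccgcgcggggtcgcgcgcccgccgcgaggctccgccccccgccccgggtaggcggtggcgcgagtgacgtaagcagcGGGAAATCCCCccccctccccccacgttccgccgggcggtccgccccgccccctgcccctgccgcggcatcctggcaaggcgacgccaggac
Rela: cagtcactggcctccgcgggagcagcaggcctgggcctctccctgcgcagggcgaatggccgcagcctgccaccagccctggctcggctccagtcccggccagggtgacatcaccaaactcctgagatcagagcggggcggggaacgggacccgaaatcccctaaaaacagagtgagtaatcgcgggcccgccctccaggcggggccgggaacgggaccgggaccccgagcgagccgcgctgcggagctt
Nfkbia: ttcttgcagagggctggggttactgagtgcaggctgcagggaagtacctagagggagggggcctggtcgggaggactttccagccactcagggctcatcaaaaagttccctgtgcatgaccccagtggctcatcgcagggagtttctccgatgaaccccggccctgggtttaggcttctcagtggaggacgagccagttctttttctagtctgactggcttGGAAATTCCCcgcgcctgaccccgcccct
Tnfaip3: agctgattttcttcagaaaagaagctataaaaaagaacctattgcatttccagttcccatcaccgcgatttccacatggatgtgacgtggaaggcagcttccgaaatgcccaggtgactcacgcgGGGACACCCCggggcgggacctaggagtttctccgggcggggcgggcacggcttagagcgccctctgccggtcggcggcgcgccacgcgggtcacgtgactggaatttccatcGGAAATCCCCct
In the Nfkb2 window, matches began 39 and 11 bases before the start, and in the Rel window 92 bases before it. The Nfkbia match began 29 bases before the start. The Tnfaip3 window held matches 125 and 12 bases before the start, and the other Tnfaip3 window held none. The Bcl3 match (GGGAAGTCCC, chromosome 7) began at base 3 after the start. The Rela window and that of Birc3 held neither motif. These matches describe letters only, and binding was not measured. Of the members with no window given, Relb lies on chromosome 7 (bases 19606217 to 19629438 of the RefSeq gene, GRCm38.p6), near Bcl3 (bases 19808462 to 19822824), and Nfkbiz lies on chromosome 16 (bases 55811375 to 55838954).

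All values are log2 RMA values, and levels of different genes are not compared because each probe set has its own brightness. The endothelial label was checked with 12 marker genes, among them Pecam1 and Cdh5, and the 12 had group means above the array median in each group. Notch1 itself lay between 9.63 and 9.87 in NICD DNFB ears and between 9.47 and 9.83 in NICD vehicle ears, against 9.52 to 9.87 in control DNFB ears and 9.69 to 10.02 in control vehicle ears, so the probe set did not separate the genotypes. Xist, expressed from the inactive X chromosome of females, lay between 8.47 and 9.07 in NICD arrays and between 2.27 and 3.16 in control arrays, and the Y-linked gene Eif2s3y between 2.11 and 2.79 in NICD arrays and between 6.08 and 7.12 in control arrays. Sex, genotype and array set therefore cannot be told apart. Array medians were 3.52 to 3.62 in NICD arrays and 3.87 to 3.98 in control arrays. The lowest value of an array was 1.18 to 1.30 in NICD arrays and 0.41 to 0.59 in control arrays. Neither measure overlapped between the genotypes, and whether they were normalized separately was not tested. Notch1, Xist and Eif2s3y were named after their values were seen.

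In response to DNFB, the genes of subunits Nfkb2, Rela and Relb rose in both genotypes, by 0.30 to 0.84, and so did Birc3, whereas Nfkbia and Nfkbiz fell by 0.22 and 0.28 in control mice and Rel, Tnfaip3 and Bcl3 did not pass the test. In NICD mice 4 of 9 members rose and 0 fell, where 20% of all probe sets rose and 18.1% fell. In control mice 4 rose and 2 fell, where 23.7% of all probe sets rose and 23.6% fell. The 4 that rose were the same in both genotypes, where 16.3% of all probe sets rose in both. The median difference of the 9 members was 0.33 in NICD mice and 0.30 in control mice, against 0.0067 and -0.0012 over all probe sets. In NICD mice every DNFB array lay above every vehicle array for 4 members, a pattern of 19.9% of all probe sets. In control mice it did so for 2 members and lay below for 2, patterns of 13.6% and 13.2% of all probe sets. The calls are from limma's moderated test with Benjamini-Hochberg adjustment over all 14886 probe sets, at an adjusted p of 0.05. In bulk cells of this kind, fewer cells of a type and less RNA per cell cannot be told apart.

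**Figure D1:**
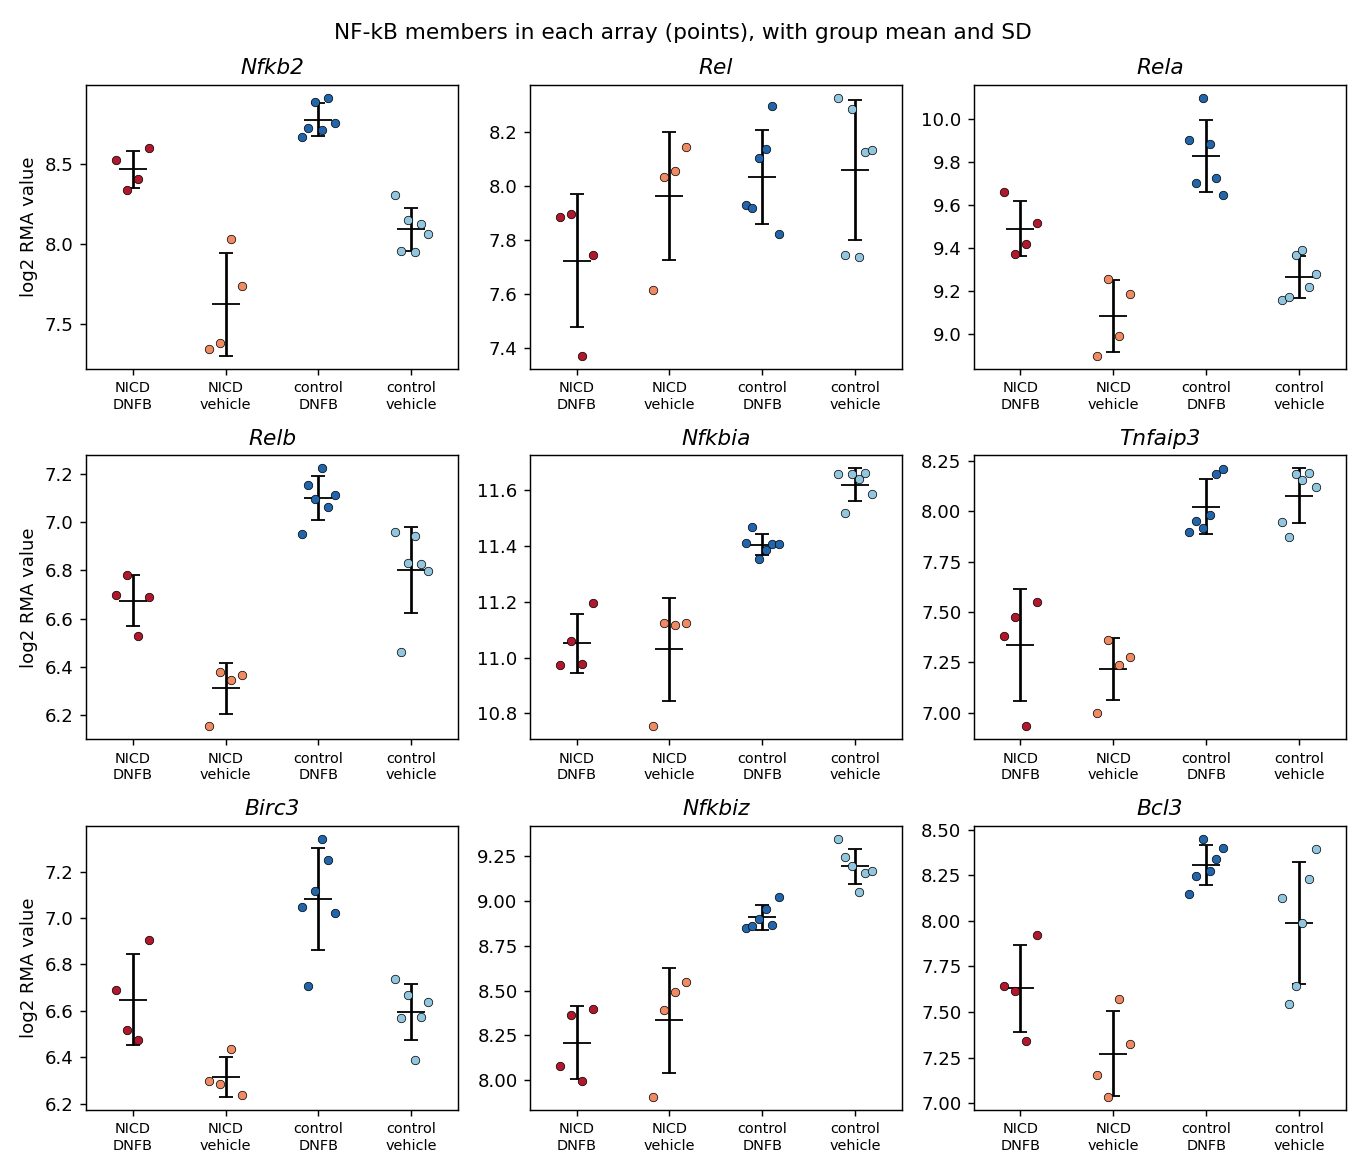
Log2 RMA value (vertical axis, its own range in each panel) of each of the 9 measured members in the 4 NICD DNFB, 4 NICD vehicle, 6 control DNFB and 6 control vehicle arrays. Points are arrays, the horizontal line is the group mean and the bar is the SD. Nfkb2 and Rela stand higher in DNFB ears of both genotypes, and Relb, Nfkbia, Tnfaip3 and Nfkbiz stand lower in NICD arrays than in control arrays of the same treatment.

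Nfkb2 encodes the p100 precursor of the p52 subunit. Its values were 8.53, 8.34, 8.41 and 8.60 in NICD DNFB ears, against 7.35, 7.38, 8.03 and 7.74 in NICD vehicle ears. In control mice Nfkb2 ran from 8.67 through a median of 8.74 to 8.92 in DNFB ears, against 7.95, 8.09 and 8.31 (lowest, median and highest) in vehicle ears. Every DNFB array lay above every vehicle array of its genotype, and NICD vehicle replicates 1 and 2 were the lowest of all 20. The difference was 0.84 ± 0.13 in NICD mice (SE, 4 against 4 arrays, adjusted p = 3.94e-05 in limma), a 1.79-fold level, and 0.69 ± 0.11 in control mice (6 against 6 arrays, adjusted p = 2.69e-05), a 1.61-fold level.

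Rela encodes p65, the subunit with the main activation domain of the canonical arm. In NICD mice its values were 9.66, 9.37, 9.42 and 9.51 in DNFB ears, against 8.90, 9.26, 8.99 and 9.18 in vehicle ears. Its lowest, median and highest values in control mice were 9.65, 9.81 and 10.10 in DNFB ears, against 9.16, 9.25 and 9.39 in vehicle ears. Again the treatments did not overlap in either genotype. Rela rose by 0.41 ± 0.12 in NICD mice (adjusted p = 0.00819 in limma) and by 0.56 ± 0.09 in control mice (adjusted p = 5.03e-05). After quantile normalization of all arrays the difference in NICD mice was 0.26, with an adjusted p of 0.0901 in limma, and after cyclic loess it was 0.28 (adjusted p = 0.0586), so that call rests on the scaling.

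Relb encodes the partner of p52 in the non-canonical arm. It read 6.70, 6.78, 6.53 and 6.69 in NICD DNFB ears, against 6.16, 6.38, 6.35 and 6.37 in NICD vehicle ears. In control mice it ran from 6.95 through a median of 7.10 to 7.22 in DNFB ears, against 6.46, 6.83 and 6.96 in vehicle ears. The treatments were separate in NICD mice and met in control mice, where the highest vehicle array lay just above the lowest DNFB array. Relb rose by 0.36 ± 0.11 in NICD mice (adjusted p = 0.0125 in limma) and by 0.30 ± 0.09 in control mice (adjusted p = 0.01).

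Rel encodes c-Rel, a canonical subunit best known from lymphoid cells. Its values were 7.89, 7.89, 7.37 and 7.74 in NICD DNFB ears, against 7.62, 8.03, 8.06 and 8.14 in NICD vehicle ears. In control mice they ran from 7.82 through a median of 8.02 to 8.30 in DNFB ears, against 7.74, 8.13 and 8.33 in vehicle ears. The treatments overlapped in both genotypes. The difference was -0.24 ± 0.16 in NICD mice (adjusted p = 0.272 in limma, 95% interval -0.58 to 0.10) and -0.02 ± 0.13 in control mice (adjusted p = 0.896, 95% interval -0.30 to 0.25).

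Nfkbia encodes IkBa, the classic inhibitor that NF-kB induces against itself. It read 10.97, 11.06, 10.98 and 11.20 in NICD DNFB ears, against 10.75, 11.13, 11.12 and 11.12 in NICD vehicle ears. In control mice its lowest, median and highest values were 11.36, 11.41 and 11.47 in DNFB ears, against 11.52, 11.65 and 11.66 in vehicle ears. In NICD mice the treatments overlapped, and in control mice every DNFB array lay below every vehicle array. The difference in NICD mice was 0.02 ± 0.10 (adjusted p = 0.894 in limma), and in control mice Nfkbia fell by 0.22 ± 0.08 (adjusted p = 0.0301), to 0.861 times the vehicle level. The fall in control mice missed the threshold without 1 of 6 arrays, control DNFB replicate 3 or 4 or control vehicle replicate 1, 3, 4 or 5, with a difference of -0.21 in each and adjusted p values up to 0.055 in limma. It also missed it with no filter on dim probe sets (adjusted p = 0.0644 in limma).

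Tnfaip3 encodes A20, a ubiquitin-editing enzyme that shuts off signalling upstream of IKK. Its values were 7.38, 7.48, 6.93 and 7.55 in NICD DNFB ears, against 6.998, 7.36, 7.24 and 7.27 in NICD vehicle ears. In control mice it ran from 7.90 through a median of 7.97 to 8.21 in DNFB ears, against 7.87, 8.14 and 8.19 in vehicle ears. The treatments overlapped in both genotypes, and NICD DNFB replicate 3 was the lowest of all 20 arrays. The differences were 0.12 ± 0.13 in NICD mice (adjusted p = 0.534 in limma) and -0.05 ± 0.11 in control mice (adjusted p = 0.71).

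Birc3 encodes cIAP2, a ubiquitin ligase of the TNF receptor complex. It read 6.69, 6.52, 6.47 and 6.91 in NICD DNFB ears, against 6.30, 6.29, 6.43 and 6.24 in NICD vehicle ears. In control mice it ran from 6.71 through a median of 7.08 to 7.34 in DNFB ears, against 6.39, 6.61 and 6.74 in vehicle ears. The treatments did not overlap in NICD mice, and in control mice 1 DNFB array lay within the vehicle range. Birc3 rose by 0.33 ± 0.13 in NICD mice (adjusted p = 0.047 in limma) and by 0.49 ± 0.11 in control mice (adjusted p = 0.000702). The NICD call lay at the threshold and was lost on leaving out any 1 of 13 arrays: control DNFB replicates 1, 3 and 6, control vehicle replicates 1, 2, 3, 5 and 6, NICD DNFB replicates 1 and 4, and NICD vehicle replicates 1, 2 and 4. Without NICD DNFB replicate 4 the difference was 0.25 and the adjusted p in limma 0.164. The NICD call was also lost with no filter on dim probe sets (adjusted p = 0.0844 in limma), with the whole table tested (0.0652), after cyclic loess (0.062) and with the compared groups fitted alone (0.0648).

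Nfkbiz encodes IkBz, a nuclear IkB that works as a cofactor for later NF-kB targets. Its values were 8.08, 8.37, 7.996 and 8.40 in NICD DNFB ears, against 7.91, 8.39, 8.49 and 8.55 in NICD vehicle ears. Its lowest, median and highest values in control mice were 8.85, 8.88 and 9.02 in DNFB ears, against 9.05, 9.18 and 9.35 in vehicle ears. In NICD mice the treatments overlapped, and in control mice they did not. The difference in NICD mice was -0.13 ± 0.13 (adjusted p = 0.486 in limma), and in control mice Nfkbiz fell by 0.28 ± 0.11 (adjusted p = 0.0323), to 0.821 times the vehicle level. The fall in control mice missed the threshold without control DNFB replicate 1, 2 or 5 or control vehicle replicate 1 or 2, at differences of -0.28 to -0.25 and adjusted p values up to 0.0711 in limma. It also missed it with no filter on dim probe sets (adjusted p = 0.057 in limma) and with array weights (adjusted p = 0.0513).

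Bcl3, a nuclear IkB that binds p50 and p52 dimers, read 7.64, 7.62, 7.34 and 7.92 in NICD DNFB ears, against 7.15, 7.03, 7.57 and 7.33 in NICD vehicle ears. In control mice it ran from 8.15 through a median of 8.31 to 8.45 in DNFB ears, against 7.54, 8.06 and 8.40 in vehicle ears. The treatments overlapped in both genotypes, and of the 4 groups the control vehicle arrays were spread over the widest range. The differences were 0.36 ± 0.17 in NICD mice (adjusted p = 0.107 in limma) and 0.32 ± 0.14 in control mice (adjusted p = 0.0656). In control mice the call was gained without control vehicle replicate 5 (difference 0.37, adjusted p = 0.0457) or replicate 6 (0.40, adjusted p = 0.022).

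**Figure D2:**
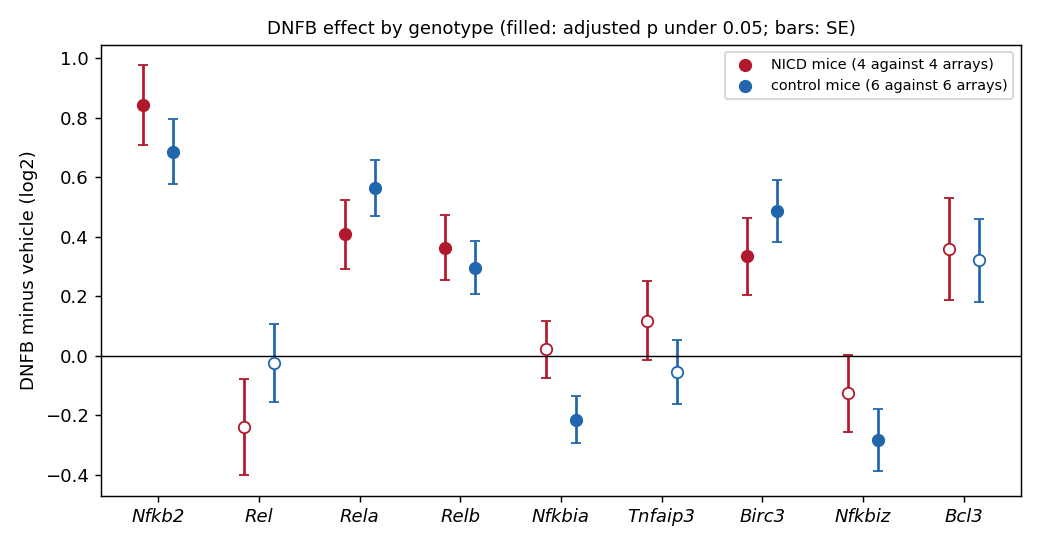
DNFB minus vehicle (log2, vertical axis) for each member in NICD mice and in control mice. Points are the fitted differences, bars the SE, and filled points have an adjusted p under 0.05. Nfkb2, Rela, Relb and Birc3 are filled above 0 in both genotypes, and Nfkbia and Nfkbiz are filled below 0 in control mice.

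Whether the genotypes differed in their response was tested on the difference of the DNFB effects. It passed for 0 of 9 members in limma, and 0 had an unadjusted p under 0.05, where 0.0134% of all probe sets passed after adjustment and 10.6% before it. The estimate furthest from 0 was that of Nfkbia, 0.24 ± 0.12 (adjusted p = 0.527 in limma), with a 95% interval of -0.02 to 0.50. For Nfkb2 the estimate was 0.16 ± 0.17, with a 95% interval of -0.20 to 0.52, and for Rela it was -0.16 ± 0.15, with a 95% interval of -0.47 to 0.16. The Nfkb2 interval thus reaches 0.52, beside DNFB effects of 0.84 in NICD mice and 0.69 in control mice.

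Markers of some other cell types moved with DNFB. The counts of this paragraph stand beside 20% of all probe sets that rose and 18.1% that fell in NICD mice. In control mice the shares were 23.7% and 23.6%. Of 3 T and NK cell markers tested, 0 passed in either genotype. Of 9 keratinocyte markers, 1 rose and 1 fell in NICD mice, and 2 rose and 2 fell in control mice. Of 7 fibroblast markers, 2 rose and 2 fell in NICD mice, and 3 rose and 0 fell in control mice. The keratinocyte counts, and the fibroblast counts in NICD mice, lay near or below the shares of all probe sets. Of 12 neutrophil marker genes, group means lay above the array median for 7 in NICD DNFB ears and 2 in NICD vehicle ears, and for 6 in control DNFB ears and 1 in control vehicle ears. Markers of neutrophils, summed over 12 genes, lay at 53.1 to 56.1 in NICD DNFB ears and 37.5 to 39.4 in NICD vehicle ears, and at 51.4 to 62.6 in control DNFB ears and 38.0 to 40.4 in control vehicle ears. Summed markers of macrophages and monocytes (12 genes) lay at 53.0 to 60.5 in NICD DNFB ears and 44.8 to 45.6 in NICD vehicle ears, and at 54.2 to 64.5 in control DNFB ears and 44.6 to 50.4 in control vehicle ears. Of the 10 tested, 5 rose in NICD mice and 6 in control mice, and the rest did not pass. Ptprc, which encodes CD45, the leukocyte protein the sort gated against, averaged 4.86 ± 0.67 in NICD DNFB ears and 3.30 ± 0.25 in NICD vehicle ears (SD, n = 4 each), and 5.00 ± 0.62 in control DNFB ears and 3.79 ± 0.26 in control vehicle ears (SD, n = 6 each). Platelet markers (4 of 5 measured) summed to 21.2 to 24.1 in NICD DNFB ears and 15.4 to 17.4 in NICD vehicle ears, and to 23.7 to 29.9 in control DNFB ears and 17.0 to 21.7 in control vehicle ears. Of the endothelial markers, 7 of 12 fell in NICD mice and 11 of 12 fell in control mice, with sums of 115 to 118 in NICD DNFB ears and 122 to 124 in NICD vehicle ears, and of 112 to 118 in control DNFB ears and 124 to 127 in control vehicle ears. Of 9 pericyte and smooth muscle markers, 7 fell in NICD mice and 8 in control mice, with sums of 68.0 to 71.7 in NICD DNFB ears and 78.0 to 80.2 in NICD vehicle ears, and of 69.6 to 76.4 in control DNFB ears and 79.8 to 83.6 in control vehicle ears. A list of 16 immediate early and dissociation genes included the heat-shock genes Hspa1a, Hspa1b and Dnajb1. Of the 16, 12 fell and 0 rose in NICD mice, and 11 fell and 1 rose in control mice. The 1 that rose was Dnajb1, which averaged 8.61 in control vehicle ears and 8.93 in control DNFB ears. The part of other cell types or of dissociation in the members' differences was not tested.

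Members that moved the same way with DNFB correlated across arrays while the DNFB effect was left in, which follows in part from that choice of members. As a description over 20 arrays with each genotype's mean removed, Nfkb2 correlated at r = 0.80 with Rela, 0.82 with Relb and 0.83 with Birc3, and Nfkbia at r = 0.83 with Nfkbiz. With each group's mean removed, which takes the DNFB effect out, Nfkb2 correlated at r = 0.02 with Rela, 0.30 with Relb and 0.45 with Birc3, and Nfkbia at r = 0.77 with Nfkbiz. Rela then correlated at r = 0.23 with Relb and 0.14 with Birc3, and Relb at r = 0.09 with Birc3. All 9 members lay below their group mean in NICD vehicle replicate 1, by a mean of 0.22, and in NICD DNFB replicate 3, by a mean of 0.20, and 8 of 9 did so in control vehicle replicate 2. The 20 points of each correlation share the sort and, within a group, the treatment, and the part of cell makeup and array quality in these values was not tested.

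The genes most like each member were taken as the 2 highest r over the 20 arrays with genotype means removed. Symbols of the kinds Gm, Rik, Mir and Snor, among others, were left out. These r values keep the DNFB effect, and 16.3% of all probe sets rose with DNFB in both genotypes. For Nfkb2 they were Baz1a (r = 0.96) and Sbno2 (r = 0.95), and for Rela Rybp (r = 0.95) and Nup153 (r = 0.95). Relb was most like Jpt1 (r = 0.91) and Trib1 (r = 0.90), and Birc3 most like Gtf2h1 (r = 0.92) and Hgsnat (r = 0.91). Nfkbia was nearest to the kinase gene Map3k8 (r = 0.85) and to Itpripl1 (r = 0.84), and Nfkbiz to the immediate early gene Atf3 (r = 0.85) and to Rsrp1 (r = 0.84). Tnfaip3 was nearest to another nuclear IkB gene, Nfkbid (r = 0.82), then to Olfr914 (r = 0.73). Bcl3 was nearest to Zswim6 (r = 0.83) and the pseudogene Rps15a-ps6 (r = 0.81), and Rel to Slc66a2 (r = 0.81) and Lrig3 (r = 0.73).

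Between genotypes, Nfkbia, Tnfaip3, Nfkbiz and Bcl3 were lower in NICD mice in both treatments as deposited, with levels 0.55 to 0.782 times those of controls. The subunit genes Relb and Nfkb2 were lower in both treatments as well, with levels 0.712 to 0.806 times those of controls. Rela and the inhibitor gene Birc3 were called lower in DNFB ears alone. As deposited, 8 of 9 members were lower in NICD DNFB ears than in control DNFB ears, and 6 of 9 in NICD vehicle ears than in control vehicle ears. The background was one-sided too, since 35.1% of all probe sets were lower in DNFB ears and 33.0% in vehicle ears. No member was higher, where 5.45% of all probe sets were higher in DNFB ears and 2.88% in vehicle ears. Every NICD array lay below every control array for 6 members in DNFB ears and 4 in vehicle ears, patterns of 21.7% and 22.2% of all probe sets. The median difference over all probe sets was -0.27 in DNFB ears and -0.28 in vehicle ears, beside -0.42 and -0.49 over the 9 members. Over sixths of the mean level it was -0.40 in the dimmest and -0.08 in the brightest in DNFB ears, and -0.36 and -0.16 in vehicle ears. Of the 9 members, 7 lay in the brightest sixth, and Relb and Birc3 in the next.

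Each genotype difference is therefore given under 3 scalings: as deposited, after quantile normalization of all arrays and after centring each array on its median. After quantile normalization 5 members were lower in DNFB ears and 4 in vehicle ears, where 11.9% and 9.35% of all probe sets were lower. After centring 1 was lower in DNFB ears and 3 in vehicle ears, where 8.12% and 6.54% of all probe sets were lower. Centring moved the median of all probe sets to 0.10 in DNFB ears and 0.05 in vehicle ears, and quantile normalization moved it to -0.0047 and -0.04. Centring shifts all probe sets of an array by the same amount, whatever their level. In the brightest sixth, where 7 members lay, the median was 0.0049 in DNFB ears and -0.05 in vehicle ears after quantile normalization. Marker lists were compared between genotypes too. As deposited, 35.1% of all probe sets were lower in DNFB ears and 33.0% in vehicle ears. Of the 16 immediate early and dissociation genes, 9 were lower and 2 higher in NICD mice in each treatment as deposited. The heat-shock gene Hspa1a was 1 of the 2 higher. After quantile normalization 6 were lower in DNFB ears and 5 in vehicle ears, and after centring 1 in each. In DNFB ears, as deposited, 3 of 4 platelet markers, 3 of 7 fibroblast markers and 3 of 9 pericyte markers were lower, and in vehicle ears 1 of 4, 1 of 7 and 3 of 9. The pericyte counts and the other counts in vehicle ears lay near or below the share of all probe sets. After centring 1, 1 and 2 were lower in DNFB ears and 0 in vehicle ears, and 2 and 1 pericyte markers were higher. Of 12 endothelial markers, 2 were higher in DNFB ears and 2 lower in vehicle ears as deposited. After quantile normalization 3 were higher in DNFB ears and 1 in vehicle ears, and after centring 10 and 4 were higher. Of all 14886 probe sets, 4283 passed in DNFB ears after centring, 1209 of them lower and the rest higher. In vehicle ears 2741 passed after centring, 974 of them lower. The part of these in the members' genotype differences was not tested.

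**Figure D3:**
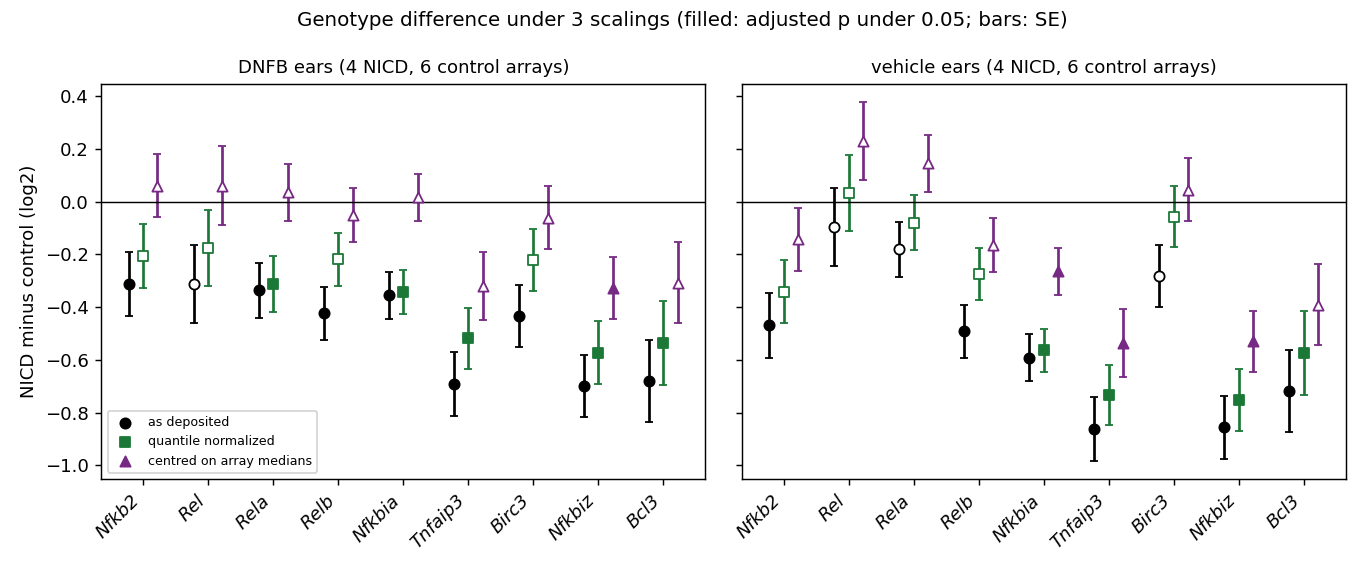
NICD minus control (log2, vertical axis) for each member in DNFB ears (left) and vehicle ears (right), under 3 scalings of the same 4 NICD and 6 control arrays per panel. Points are the fitted differences, bars the SE, and filled points have an adjusted p under 0.05. Nfkbiz is filled below 0 under each scaling in both panels. After centring the points of Nfkb2, Rel, Rela and Nfkbia lie above 0 in DNFB ears, and those of Rel, Rela and Birc3 in vehicle ears.

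Nfkbiz was lower under each of the 3 scalings in both treatments. Its difference in DNFB ears was -0.70 ± 0.12 as deposited (adjusted p = 0.000183 in limma), -0.57 after quantile normalization (adjusted p = 0.00198) and -0.33 after centring (adjusted p = 0.0397). In vehicle ears it was -0.86 ± 0.12 as deposited (adjusted p = 3.73e-05 in limma), -0.75 after quantile normalization (adjusted p = 0.00033) and -0.53 after centring (adjusted p = 0.00373). The values given above do not overlap: the highest Nfkbiz value was 8.40 in NICD DNFB ears, against a lowest of 8.85 in control DNFB ears, and 8.55 in NICD vehicle ears, against 9.05 in control vehicle ears.

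Tnfaip3 was lower in vehicle ears under the 3 scalings, at -0.86 ± 0.12 as deposited (adjusted p = 4.61e-05 in limma), -0.73 after quantile normalization (adjusted p = 0.00032) and -0.54 after centring (adjusted p = 0.00703). In DNFB ears it was -0.69 ± 0.12 as deposited (adjusted p = 0.00026 in limma) and -0.52 after quantile normalization (adjusted p = 0.00331), and after centring the difference was -0.32 (adjusted p = 0.0701). Every NICD array lay below every control array of its treatment, 7.55 at most in NICD DNFB ears against 7.90 at least in control DNFB ears, and 7.36 at most in NICD vehicle ears against 7.87 at least in control vehicle ears.

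Nfkbia was lower in vehicle ears under the 3 scalings too, at -0.59 ± 0.09 as deposited (adjusted p = 8.22e-05 in limma), -0.56 after quantile normalization (adjusted p = 0.000155) and -0.26 after centring (adjusted p = 0.0447). In DNFB ears it was -0.36 ± 0.09 as deposited (adjusted p = 0.00385 in limma) and -0.34 after quantile normalization (adjusted p = 0.00537). After centring it was 0.02 in DNFB ears (adjusted p = 0.91 in limma), so the sign turned there. Bcl3 was lower by 0.68 ± 0.16 in DNFB ears (adjusted p = 0.0022 in limma) and by 0.72 ± 0.16 in vehicle ears (adjusted p = 0.0018). After quantile normalization Bcl3 was at -0.53 and -0.57 (adjusted p = 0.02 in DNFB ears and 0.0189 in vehicle ears in limma), and after centring at -0.31 and -0.39, where neither passed.

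The differences of the subunit genes and Birc3 also depended on the scaling, as did the calls of Nfkbia and Tnfaip3 in DNFB ears and of Bcl3 in both treatments. As deposited, Relb was lower by 0.42 ± 0.10 in DNFB ears (adjusted p = 0.00276 in limma) and by 0.49 ± 0.10 in vehicle ears (adjusted p = 0.00112), and after quantile normalization its differences were -0.22 and -0.27, neither past the threshold. After centring they were -0.05 in DNFB ears and -0.16 in vehicle ears. Nfkb2 was lower by 0.31 ± 0.12 in DNFB ears (adjusted p = 0.0473 in limma) and by 0.47 ± 0.12 in vehicle ears (adjusted p = 0.00606), and after quantile normalization its differences were -0.21 and -0.34, neither past it. After centring Nfkb2 was at 0.06 in DNFB ears, with the sign turned, and at -0.14 in vehicle ears, neither past it. The Nfkb2 call in DNFB ears was at the threshold and missed it with no filter on dim probe sets, with the whole table tested, and on leaving out any 1 of 13 arrays: NICD DNFB replicates 1, 2 and 3, NICD vehicle replicate 4, control DNFB replicates 2 to 6 and control vehicle replicates 3 to 6. Without NICD DNFB replicate 2 the Nfkb2 difference was -0.27 (adjusted p = 0.132 in limma). Rela was lower by 0.34 ± 0.11 in DNFB ears (adjusted p = 0.0163 in limma) and by 0.31 after quantile normalization (adjusted p = 0.0374), but its difference was 0.04 after centring. Without NICD DNFB replicate 2 the Rela difference was -0.30 (adjusted p = 0.0569 in limma). In vehicle ears Rela was at -0.18 (adjusted p = 0.184 in limma). Birc3 was lower by 0.43 ± 0.12 in DNFB ears (adjusted p = 0.00695 in limma) and at -0.22 after quantile normalization (adjusted p = 0.178) and -0.06 after centring (adjusted p = 0.734). In vehicle ears Birc3 was at -0.28 (adjusted p = 0.0687 in limma) and passed without control DNFB replicate 2 (-0.28, adjusted p = 0.0426) or control vehicle replicate 4 (-0.32, adjusted p = 0.0475). Rel was at -0.31 in DNFB ears (adjusted p = 0.0985) and -0.10 in vehicle ears (adjusted p = 0.635).

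Set side by side, the groups stood in different orders for different members. Nfkb2 averaged 8.47 in NICD DNFB ears and 7.62 in NICD vehicle ears, and 8.78 in control DNFB ears and 8.09 in control vehicle ears. Rela averaged 9.49 in NICD DNFB ears and 9.08 in NICD vehicle ears, and 9.83 in control DNFB ears and 9.26 in control vehicle ears. For both genes control DNFB ears were highest and NICD vehicle ears lowest, and the neighbouring vehicle groups overlapped. Nfkbia averaged 11.05 in NICD DNFB ears and 11.03 in NICD vehicle ears, and 11.41 in control DNFB ears and 11.62 in control vehicle ears. Nfkbiz averaged 8.21 in NICD DNFB ears and 8.34 in NICD vehicle ears, and 8.91 in control DNFB ears and 9.19 in control vehicle ears. For these genes control vehicle ears were highest, and the pair of NICD groups overlapped at the low end. Tnfaip3 averaged 7.33 in NICD DNFB ears and 7.22 in NICD vehicle ears, and 8.02 in control DNFB ears and 8.08 in control vehicle ears, so its groups parted by genotype as deposited with no called difference within a genotype.

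**Figure D4:**
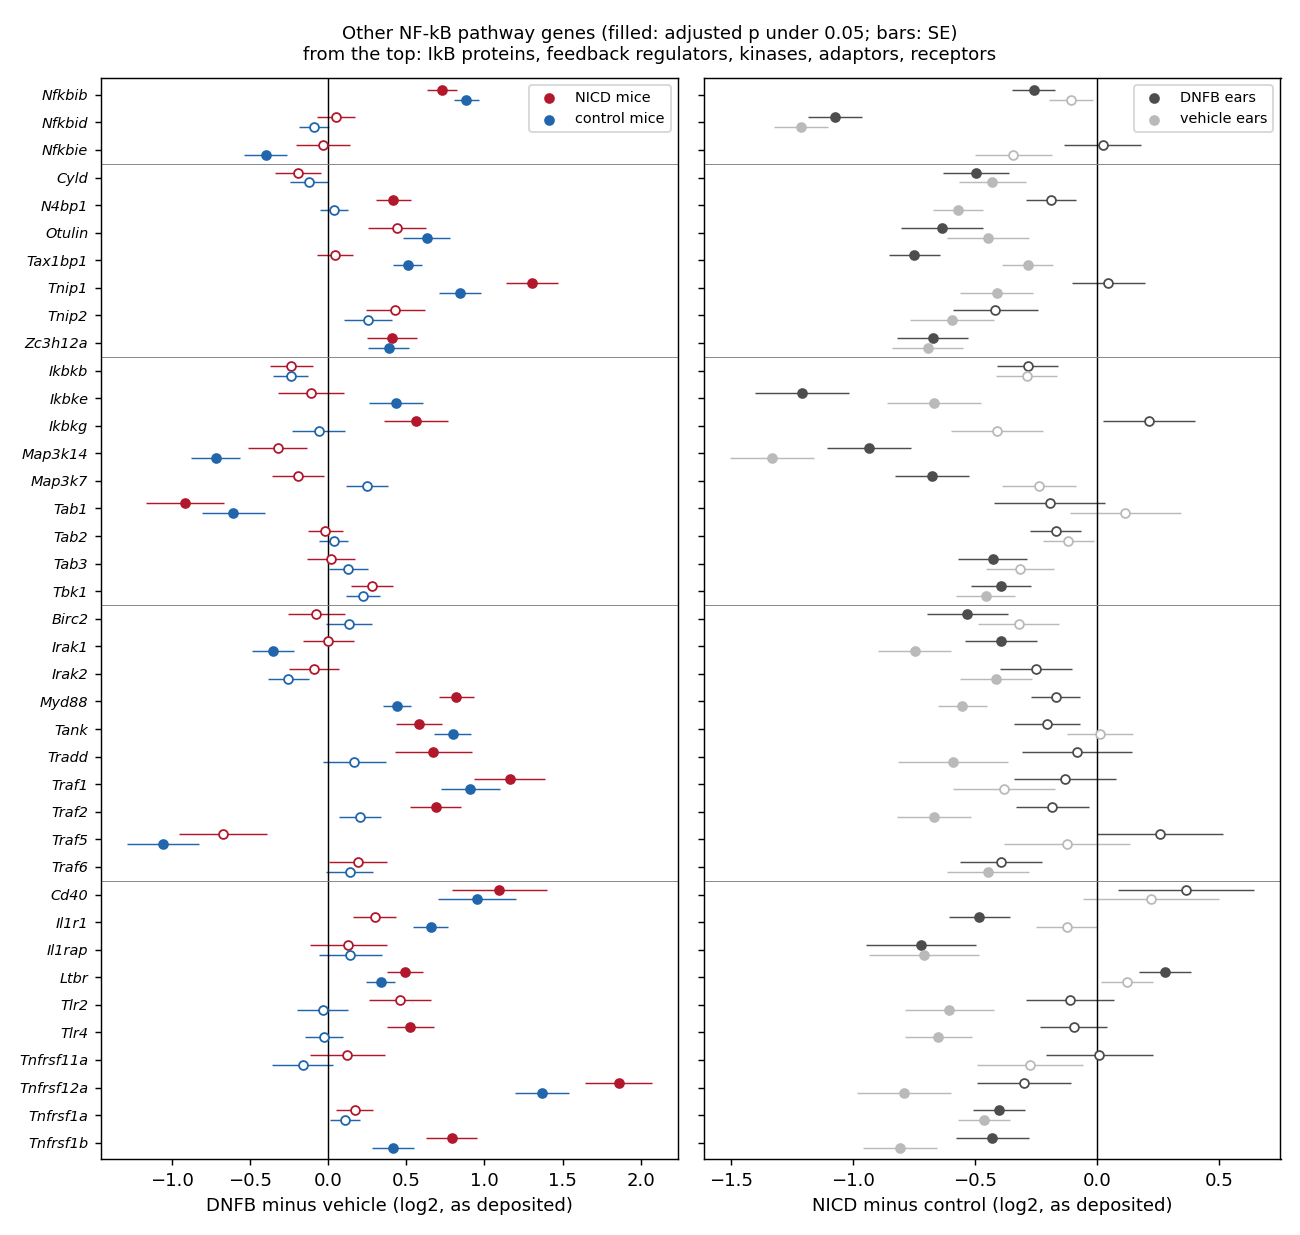
DNFB minus vehicle in each genotype (left) and NICD minus control in each treatment (right), log2 as deposited, for the other measured genes of the NF-kB pathway. Points are fitted differences, bars the SE, and filled points have an adjusted p under 0.05. Nfkbib, Tnip1, Traf1, Myd88, Tank and Tnfrsf12a are filled above 0 in both genotypes on the left, and on the right Nfkbid lies at -1.07 in DNFB ears and -1.21 in vehicle ears, Map3k14 at -1.33 in vehicle ears and Ikbke at -1.21 in DNFB ears. The Ikbke mean lay below the array median in both NICD groups.

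The rest of the pathway was read from lists of its parts. Of 3 other IkB genes, Nfkbib, which encodes IkBb, rose by 0.73 ± 0.10 in NICD mice (adjusted p = 5.25e-06 in limma) and by 0.88 ± 0.08 in control mice (adjusted p = 1.74e-08). Nfkbie, which encodes IkBe, fell by 0.40 in control mice (adjusted p = 0.0239) and had a difference of -0.03 in NICD mice (adjusted p = 0.906). Nfkbid, which encodes the nuclear protein IkBNS, had differences of 0.05 in NICD mice and -0.09 in control mice, neither past the threshold. Of the IkB genes Nfkbid lay furthest below controls in NICD mice as deposited: it averaged 5.28 ± 0.28 in NICD DNFB ears (SD, n = 4) and 6.35 ± 0.11 in control DNFB ears (SD, n = 6), a difference of -1.07 (adjusted p = 1.97e-06 in limma). In vehicle ears it averaged 5.23 ± 0.10 in NICD mice and 6.44 ± 0.10 in control mice, a difference of -1.21 (adjusted p = 5.56e-07). It stayed past the threshold after quantile normalization, at -0.73 in DNFB ears and -0.95 in vehicle ears, and after centring in both.

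Of the other feedback regulators 7 of 8 were tested, and 3 rose in NICD mice and 4 in control mice, with 0 falling and medians of 0.42 and 0.39. Of all probe sets 20% rose in NICD mice and 23.7% in control mice. Tnip1, which encodes the A20 partner ABIN1, rose by 1.30 in NICD mice (adjusted p = 2.93e-06 in limma) and by 0.85 in control mice (adjusted p = 2.7e-05). Zc3h12a, which encodes the RNase Regnase-1, rose by 0.41 in NICD mice (adjusted p = 0.0477 in limma) and by 0.39 in control mice (adjusted p = 0.0178). N4bp1 rose by 0.42 in NICD mice, and the deubiquitinase gene Otulin and the A20 adaptor gene Tax1bp1 rose by 0.63 and 0.51 in control mice. Cyld, another deubiquitinase gene, had differences of -0.19 and -0.12, neither past the threshold, and Tnip2 had 0.43 in NICD mice and 0.25 in control mice, neither past it. Between genotypes 4 were lower in NICD DNFB ears and 7 in NICD vehicle ears as deposited, against 2 and 2 after quantile normalization and 1 and 0 after centring. Of all probe sets 35.1% and 33.0% were lower as deposited. After quantile normalization the shares were 11.9% and 9.35%, and after centring 8.12% and 6.54%. Zc3h12a was 1 of the 2 in each treatment after quantile normalization, at -0.47 in DNFB ears and -0.49 in vehicle ears, and did not pass after centring (-0.30 and -0.37).

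Of the IKK complex and the kinases upstream, 9 of 10 were tested, and their median DNFB difference was -0.11 in NICD mice and 0.03 in control mice. In NICD mice Ikbkg, the NEMO scaffold gene, rose by 0.56 (adjusted p = 0.037 in limma) and Tab1, which activates the kinase TAK1, fell by 0.91 (adjusted p = 0.00608). In control mice Ikbke rose by 0.43 (adjusted p = 0.0454), Tab1 fell by 0.61 (adjusted p = 0.0184) and Map3k14 fell by 0.72 (adjusted p = 0.00064). Map3k14, the kinase gene of the non-canonical arm, averaged 4.72 ± 0.27 in NICD DNFB ears and 5.65 ± 0.32 in control DNFB ears (SD, n = 4 and 6), a difference of -0.93 (adjusted p = 0.000399 in limma). In vehicle ears it averaged 5.04 ± 0.31 in NICD mice and 6.37 ± 0.20 in control mice, a difference of -1.33 (adjusted p = 2.24e-05), and it stayed past the threshold after quantile normalization at -0.55 and -1.05 and after centring at -0.56 and -1.005. Ikbke averaged 3.23 in NICD DNFB ears and 3.34 in NICD vehicle ears, below the array medians of those groups (3.52 to 3.57 and 3.57 to 3.62). In control mice it averaged 4.44 in DNFB ears and 4.01 in vehicle ears. The sizes of its genotype differences are therefore uncertain. Ikbke was at -1.21 in DNFB ears (adjusted p = 0.000118 in limma) and at -0.90 there after quantile normalization (adjusted p = 0.0046) and -0.84 after centring (adjusted p = 0.0034). In vehicle ears Ikbke was at -0.67 as deposited and -0.39 after quantile normalization and -0.34 after centring, where it did not pass. The other 5 tested (Ikbkb, Map3k7, Tab2, Tab3 and Tbk1) had DNFB differences that did not pass in either genotype.

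Of the adaptors and ubiquitin ligases 10 of 13 were tested. In NICD mice 5 rose and 0 fell, and in control mice 3 rose and 2 fell, with medians of 0.39 and 0.15. Of all probe sets 20% rose and 18.1% fell in NICD mice, and 23.7% rose and 23.6% fell in control mice. The adaptor counts in control mice lay near those shares. Traf1, a TNF receptor adaptor, rose by 1.16 in NICD mice and 0.91 in control mice, Myd88, the adaptor of interleukin-1 and Toll-like receptors, by 0.82 and 0.44, and Tank by 0.58 and 0.80. Traf2, another adaptor of TNF receptors, rose by 0.69 in NICD mice (adjusted p = 0.00229 in limma) and had a difference of 0.20 in control mice (adjusted p = 0.229). Traf5 fell by 1.06 in control mice (adjusted p = 0.000734 in limma). Of 10 activating receptors 5 rose in each genotype and 0 fell, beside the same shares of all probe sets, with medians of 0.48 in NICD mice and 0.24 in control mice. Tnfrsf12a, the receptor of the ligand TWEAK, rose by 1.86 in NICD mice (adjusted p = 8e-07 in limma) and 1.37 in control mice (adjusted p = 1.59e-06), Cd40 by 1.10 and 0.95, and Tnfrsf1b, a TNF receptor gene, by 0.79 and 0.41. Il1r1 rose by 0.66 in control mice.

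Of the ligands 5 of 8 were tested, and 3 rose in NICD mice and 4 in control mice. For these counts and those of the target genes below, 20% of all probe sets rose and 18.1% fell in NICD mice. In control mice 23.7% rose and 23.6% fell. Il1b rose by 4.51 in NICD mice and 3.49 in control mice, Tnf by 3.26 and 2.04, and Il1a by 3.16 and 3.57. Array medians were 3.57 to 3.62 in NICD vehicle ears and 3.87 to 3.98 in control vehicle ears. Vehicle means of Il1a (3.05 in NICD mice, 3.32 in control mice) and, in NICD mice, Tnf (3.34) lay below them. The sizes of those rises are therefore uncertain. Myeloid cells are among the cells that make these cytokines, and the neutrophil and macrophage sums given above moved the same way. The cell source of these rises was not tested. Of 24 target genes tested from a list of 25 often used as NF-kB readouts, 17 rose and 3 fell in NICD mice, with a median difference of 1.66 against 0.0067 over all probe sets. In control mice 14 rose and 5 fell, with a median of 1.31 against -0.0012. The list holds Mmp9, which is also a neutrophil marker here, and chemokines, and the cell source of their values was not tested either. Cxcl10 rose by 3.77 in NICD mice and 2.36 in control mice, Cxcl5 by 3.70 and 4.67, Ccl2 by 3.57 and 3.24, and Ptgs2 by 3.44 and 4.44. Vehicle means of Cxcl5 (3.01 in NICD mice, 3.53 in control mice) and Ptgs2 (3.11 and 3.13) also lay below the array medians. So did that of Cxcl10 in NICD mice (3.46), and the sizes of these rises are uncertain too. The adhesion genes of the list were named after their values were seen. Sele, which encodes E-selectin, had a difference of -0.45 in NICD mice (adjusted p = 0.0638 in limma) and fell by 1.65 in control mice (adjusted p = 2.89e-08). Icam1 and Selp, which encode ICAM-1 and P-selectin, fell by 0.58 and 0.46 in control mice and had differences of 0.09 and 0.15 in NICD mice, neither past the threshold. Vcam1, which encodes VCAM-1, rose by 2.12 in NICD mice (adjusted p = 6.87e-05 in limma) and had a difference of 0.69 in control mice (adjusted p = 0.0557). The difference of effects did not pass for any of these 4 genes, with adjusted p values in limma of 0.0839 for Sele, 0.169 for Selp, 0.273 for Vcam1 and 0.274 for Icam1. The lists were written with results of these data known, so their counts are descriptions.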

How the data were processed

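The deposited values are log2 values per probe set and array, made by the authors with RMA in Affymetrix Expression Console, per the submitters' processing notes; versions, options and whether all arrays were normalized together are not given in the sources used here. Of 41345 probe sets, 23521 had 1 gene symbol, 1814 several and 16010 none. Probe sets with 1 symbol that exceeded the median of the array on at least 4 arrays were kept, leaving 14886 for 14178 genes.

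In R 4.3.3, limma 3.58.1 was used to estimate the mean of each of the 4 groups from the 20 arrays together. Moderated tests were adjusted by the Benjamini-Hochberg method across those 14886 probe sets, and the code was tested on simulated data in which 200 genes had known changes. Groups were taken from the sample titles. The number of arrays limits the precision, and no raw intensities were used. Promoter matches and figures used Python 3.11.15 and matplotlib 3.10.9.

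The members, lists and tests were chosen with earlier results of these data known. Named genes are the members, in each pathway list up to 3 genes past the threshold with the largest differences in a DNFB comparison, any IkB, IKK or feedback gene, and the 2 genes most like each member. Ptprc and Mmp9, from the marker lists, and Sele, Selp, Icam1 and Vcam1, from the target list, were picked with their values in view. So were Hspa1a, Hspa1b and Dnajb1, from the list of immediate early and dissociation genes.

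Alternatives were no filter and a 60th percentile filter, the whole table without regard to symbols, median centring, quantile normalization, cyclic loess, trended and robust variances, array weights, the compared groups alone, the replicate number as a block (fixed or random), and each array left out. No sex term was fitted, since X- and Y-linked genes put each genotype in 1 sex.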

Additional observations from a re-analysis of the deposited data

Results flagged for a closer look

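Within a group, 3 of 36 checked sets of values held an array whose gap to the nearest other exceeded Dixon's limit, and chance gives about 1 in 20. Relb was 6.16 in NICD vehicle replicate 1 (6.155 before rounding), against 6.35 to 6.38 in the other NICD vehicle arrays. Relb was 6.46 in control vehicle replicate 2, against 6.80 to 6.96 in the other control vehicle arrays. Nfkbia was 10.75 in NICD vehicle replicate 1, against 11.12 to 11.13 in the other NICD vehicle arrays. In these 2 arrays other members were low too: 9 of 9 lay below the group mean in NICD vehicle replicate 1 and 8 of 9 in control vehicle replicate 2. The median deviation over all probe sets was 0.03 in NICD vehicle replicate 1 and -0.03 in control vehicle replicate 2. Without NICD vehicle replicate 1 the Nfkbia difference between DNFB and vehicle in NICD mice was -0.07 (adjusted p = 0.591 in limma).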

How the results depend on the processing

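Over the 9 members, 5 comparisons and all alternatives, 1272 of 1368 values kept their direction and side of the threshold, 68 fell below it, 6 passed it and 22 changed sign. With DNFB in NICD mice 2 members passed after cyclic loess, against 4 as deposited. Between genotypes in DNFB ears 1 passed after median centring, 5 after quantile normalization and 5 after cyclic loess, against 8 as deposited, and in vehicle ears 3 passed after centring, against 6. Leaving out 1 array at a time gave 3 to 4 members for DNFB in NICD mice, 4 to 7 for DNFB in control mice, 6 to 8 between genotypes in DNFB ears, 6 to 7 in vehicle ears and 0 to 0 for the difference of effects. After centring, Nfkb2, Rel, Rela and Nfkbia were at 0.060, 0.060, 0.035 and 0.017 between genotypes in DNFB ears, and Rel, Rela and Birc3 at 0.23, 0.15 and 0.046 in vehicle ears. Rel in vehicle ears was also at 0.033 after quantile normalization and 0.068 after cyclic loess, and ranged from -0.16 to 0.019 without 1 array, the last without NICD vehicle replicate 1. For DNFB, Nfkbia in NICD mice was at -0.16 after cyclic loess and ranged from -0.071 to 0.053 without 1 array, below 0 without NICD vehicle replicate 1 or NICD DNFB replicate 4. Rel in control mice ranged from -0.0895 to 0.029 without 1 array, above 0 without control DNFB replicate 6, control vehicle replicate 1 or control vehicle replicate 3. The Bcl3 difference of effects was at -0.0021 after cyclic loess and ranged from -0.060 to 0.14 without 1 array, below 0 in 5 fits (without NICD DNFB replicate 4, NICD vehicle replicate 1 or 2, or control vehicle replicate 5 or 6). The cause of these changes was not tested.

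Over all probe sets, 3553 passed between genotypes in DNFB ears after quantile normalization and 3539 after cyclic loess, against 6036 as deposited. In vehicle ears 2741 passed after centring, 2412 after quantile normalization and 2326 after cyclic loess, against 5343. The difference of effects had 2 as deposited, 27 with trended and robust variances, 17 with array weights, 20 with the random block, 1 with no filter, 0 with all probe sets, 1 after quantile normalization, 1 after cyclic loess and 0 to 29 with 1 array left out, the 29 without control DNFB replicate 6.

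The labels give same-numbered arrays of a genotype nothing in common but the number. Their deviations from the group means correlated above 0 in 10 of 10 pairs, between 0.04 and 0.27, and 7 of 10 arrays correlated best with their own number, a hint from the data and not from the design. With the replicate number as a fixed block 3 members passed for DNFB in NICD mice, 5 in control mice and 0 for the difference of effects, and with a random block 4, 6 and 0. The fixed block ended the calls of Birc3 in NICD mice (adjusted p = 0.0926 in limma) and Nfkbia in control mice (adjusted p = 0.0508). Each member had 1 probe set, so reading the other probe sets gave no value. The DNFB calls of Nfkb2 and Relb passed under each alternative in both genotypes, Rela and Birc3 in control mice alone.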
